A study of Mus musculus with 2 samples.

Results

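Interferon-stimulated genes are the genes that cells switch on when they sense interferon, the alarm protein of viral infection. A panel of 41 such genes was listed by name, and each was looked up by its Entrez identifier in a pair of brown adipose tissue transcriptomes that together list 16174 genes. All 41 were listed in at least 1 library, and 37 reached 1 FPKM (fragments per kilobase of transcript scaled to library size, a level per length) in at least 1 library. The D3BKO library came from D3Bfl/fl-UCP1-Cre+/- mice, which carry floxed D3B alleles, taken to be Dnmt3b, which encodes an enzyme that methylates DNA, together with Cre expressed from the Ucp1 promoter, which is active in brown fat cells. The D3BWT library came from D3Bfl/fl mice, with the floxed alleles and no Cre named. Both genotypes were female C57BL/6 mice, 45 weeks old and fed chow, and how many mice went into each library is not stated in the labels.

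There was 1 library per genotype, so no difference between the genotypes could be tested and none has a replicate check. Each ratio below is FPKM in D3BKO over FPKM in D3BWT, and the values in brackets after it are its 95% counting interval, which covers counting error between these 2 libraries only. The D3BKO library held 10068359 expected counts and the D3BWT library 9666528, and their run names place D3BKO on lane 1 and D3BWT on lane 2 of the sequencer, so lane, Cre transgene and loss of D3B cannot be told apart. Dnmt3b itself had 7 counts in D3BKO and 15 in D3BWT, a ratio of 0.462 (0.159 to 1.2), too few reads to check the labels. The brown fat label matched the defining markers, with Ucp1 at 4271 FPKM in D3BKO and 4987 FPKM in D3BWT.

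Type I interferons bind a receptor whose kinases, JAK1 and TYK2, phosphorylate STAT proteins. STAT2 joins IRF9 in a complex that binds the interferon-stimulated response element (ISRE) of target promoters, and the targets include the sensors and factors, such as IRF7, that enlarge the response. Interferon gamma, the type II interferon, acts on promoters with the GAS element and induces large GTPases that attack intracellular pathogens. Adipose tissue holds adipocytes, vessels, stroma and resident immune cells, all of which carry interferon receptors, and in bulk RNA fewer cells of a type and less RNA per cell cannot be told apart.

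As a group the interferon-stimulated genes leaned towards lower levels in the D3BKO library, by small amounts. Of the 37 genes at 1 FPKM or more in either library, called tested here though no replicates allow a test, 26 had a log2 ratio below 0 and 11 above, and the median log2 ratio, computed on log2(FPKM + 1), was -0.20. Over all 11746 tested genes 53.8% were below 0 and the median was -0.03. When the D3BKO values were rescaled to the FPKM total of the D3BWT library, 24 of the 37 were below 0, against 41.9% of all tested genes, with medians of -0.13 and 0.05. Among all 41, the untested ones included, 29 were below 0 and 12 above.

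Calls at 2-fold and 1.5-fold, here and for the lists further on, are on the log2(FPKM + 1) scale and need an interval that leaves out 1. No member was 2-fold higher or lower by that rule, though the plain FPKM ratio of Ifit2 was past 2-fold lower. By the same rule 0.902% of all tested genes were 2-fold higher and 0.673% were 2-fold lower. At 1.5-fold, 4 of the 37 (10.8%) were lower, against 3.41% of all tested genes, and these were Irf7, Usp18, Isg15 and Ifit2. A single member, Ifi204 (2.7%), was 1.5-fold higher, against 4.35% of all tested genes. By the counting interval alone, 10 members (27.0%) were lower, against 22.4% of all tested genes, and 4 (10.8%) were higher, against 18.2%. The share with an interval below 1 was thus close to the background. An interval leaves out 1 more easily at high counts, so these shares also depend on level. The median level of the tested members was 4.58 FPKM in D3BKO and 4.47 FPKM in D3BWT. For all tested genes it was 8.305 FPKM in D3BKO and 8.39 FPKM in D3BWT. Ifit2, Ifi44 and Oas3 passed the 1 FPKM minimum in 1 library only, the one in which each was higher.

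**Figure D1:**
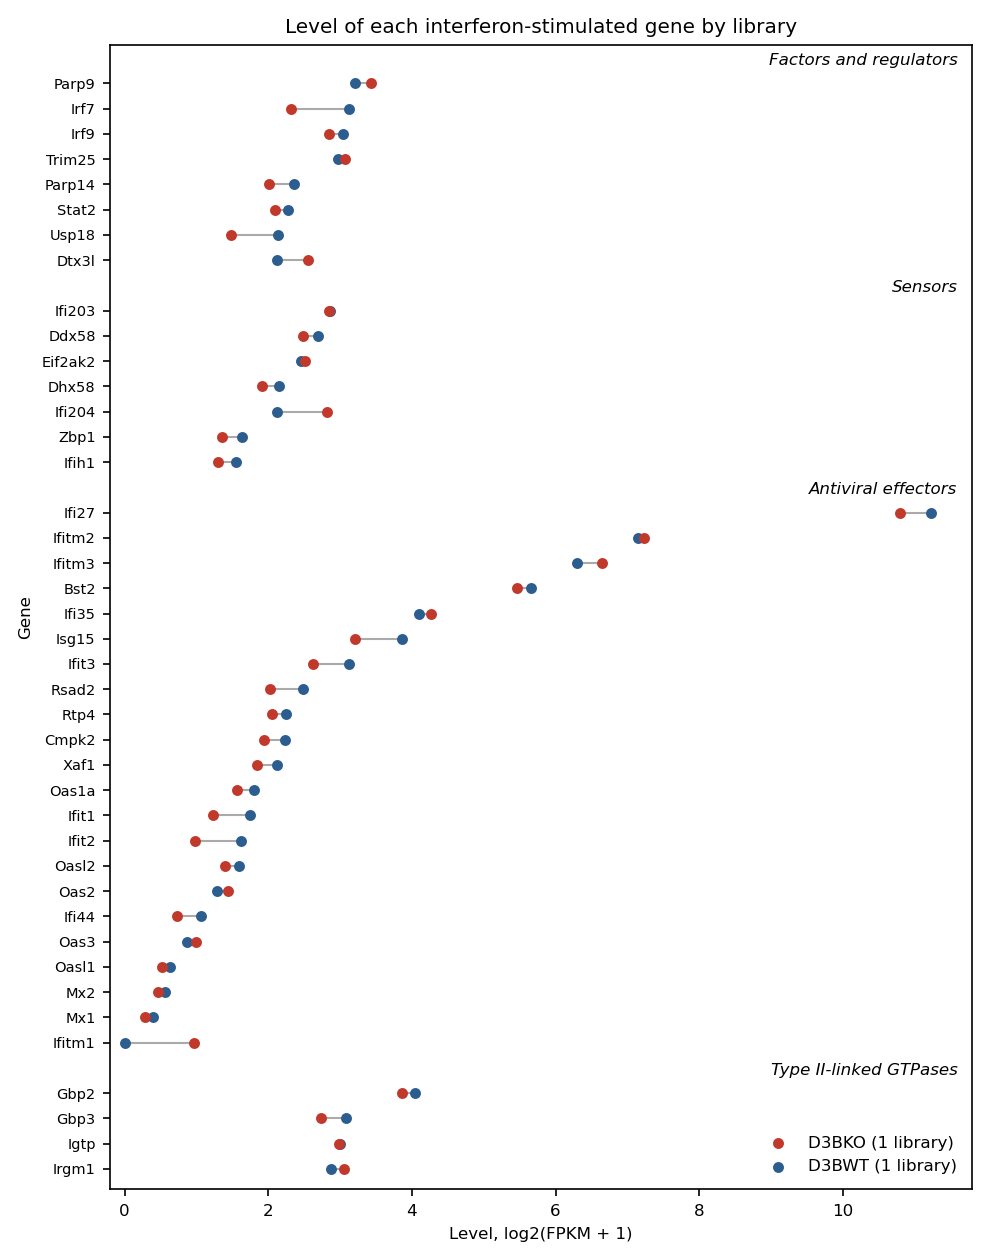
Level of each of the 41 genes as log2(FPKM + 1), in the D3BKO library (red) and the D3BWT library (blue), grouped by role and sorted within a role by the D3BWT level; each point is 1 library, with no error bar. Ifi27 stands far above the rest at 1780 FPKM in D3BKO and 2395 FPKM in D3BWT, and the widest gaps among the others belong to Irf7, Usp18, Isg15, Ifit2, Ifi204 and Ifitm1.

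The promoters of the panel show the element that the complex with STAT2 and IRF9 reads. The ISRE core was searched as GAAANNGAAA on both strands, in RefSeq promoter windows of 250 bases before to 50 bases after the start on the build GRCm38.p6, which differs from the build mm9 of the expression files. Of 41 members 30 had a window in the table, and 18 of the 30 (60.0%) held a match, against 3.99% of all 27025 genes in the table. The GAS element, searched as TTCNNNGAA, was in the windows of 7 members (23.3%), against 9.55% of all genes. A match is a description of the letters and does not show that a factor bound. The 160 bases before the start are printed for 4 members that were lower in the D3BKO library (Isg15, Ifit1, Ifit3 and Rsad2) and for 2 with ratios above 1 (Irgm1 and Ifitm2), 5′ to 3′ on the gene's own strand, with ISRE core matches in capitals.
Isg15, chr4:156200819-156200978, minus strand: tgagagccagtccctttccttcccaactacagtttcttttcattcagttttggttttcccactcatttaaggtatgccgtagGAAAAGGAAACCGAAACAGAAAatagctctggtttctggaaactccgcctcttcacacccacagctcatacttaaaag
Ifit1, chr19:34640729-34640888, plus strand: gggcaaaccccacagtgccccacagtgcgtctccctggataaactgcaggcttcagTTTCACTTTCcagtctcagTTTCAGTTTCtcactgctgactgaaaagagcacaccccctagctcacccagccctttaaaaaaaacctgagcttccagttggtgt
Ifit3, chr19:34583369-34583528, plus strand: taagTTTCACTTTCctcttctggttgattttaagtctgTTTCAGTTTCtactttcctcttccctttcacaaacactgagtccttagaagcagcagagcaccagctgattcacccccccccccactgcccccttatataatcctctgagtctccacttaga
Rsad2, chr12:26456453-26456612, minus strand: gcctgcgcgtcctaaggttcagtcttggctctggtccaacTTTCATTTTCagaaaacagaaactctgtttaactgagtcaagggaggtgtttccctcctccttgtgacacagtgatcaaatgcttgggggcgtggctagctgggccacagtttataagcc
Irgm1, chr11:48871421-48871580, minus strand: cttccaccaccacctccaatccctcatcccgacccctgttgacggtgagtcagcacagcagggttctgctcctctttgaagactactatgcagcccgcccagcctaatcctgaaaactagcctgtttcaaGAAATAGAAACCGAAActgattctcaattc
Ifitm2, chr7:140955962-140956121, minus strand: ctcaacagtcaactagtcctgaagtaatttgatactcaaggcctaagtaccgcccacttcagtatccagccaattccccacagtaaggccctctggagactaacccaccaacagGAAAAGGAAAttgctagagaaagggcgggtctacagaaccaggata
The matches of Isg15 overlap one another and form 1 run that starts 78 bases before the start of transcription. Those of Ifit1 lie 104 and 85 bases before it and those of Ifit3 156 and 122 bases before it, all on the other strand. Irgm1 carries an overlapping pair that starts 30 bases before the start. Genes below and above 0 were found both with and without a match. The 18 tested members with a match had a median log2 ratio of -0.19 (13 below 0), in a range from -0.66 to 0.35. The 10 tested members with a window and no match had -0.24 (7 below 0), from -0.80 to 0.43. No match to this string in this window does not show that the element is absent, so its part in the ratios was not tested. The ISRE core overlapped a GAS match in Bst2 and Ifitm3, so the motif counts are not fully separate.

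The factors and signalling regulators held the most negative log2 ratio among the 41 genes. Irf7, the master factor of interferon alpha production, was at 4.0 FPKM in D3BKO and 7.71 FPKM in D3BWT, from 73 and 133 counts, with a ratio of 0.519 (0.384 to 0.695). Usp18, the protease that takes ISG15 off its targets and brakes the type I receptor, was at 1.78 FPKM in D3BKO and 3.41 FPKM in D3BWT, with a ratio of 0.522 (0.326 to 0.822). Both genes were at about the same fraction of their D3BWT level, though Usp18 rests on only 31 and 57 counts. The partners of the STAT complex differed less. Irf9, its DNA-binding subunit, was at 6.16 FPKM in D3BKO and 7.21 FPKM in D3BWT, a ratio of 0.854 (0.681 to 1.07), and Stat2, its activating subunit, was at 3.28 FPKM in D3BKO and 3.82 FPKM in D3BWT, a ratio of 0.859 (0.681 to 1.08). Neither interval leaves out 1, and both allow a ratio as low as 0.681. Trim25, the ubiquitin ligase that activates RIG-I, was at 7.38 FPKM in D3BKO and 6.86 FPKM in D3BWT, with a ratio of 1.08 (0.933 to 1.24).

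The ADP-ribosylation and ubiquitin genes that lie next to each other on chromosome 16 did not differ in the same direction. Parp14, an ADP-ribosyltransferase, was at 3.01 FPKM in D3BKO and 4.12 FPKM in D3BWT, a ratio of 0.731 (0.610 to 0.874). Dtx3l, the ubiquitin ligase that pairs with PARP9, was at 4.86 FPKM in D3BKO and 3.34 FPKM in D3BWT, a ratio of 1.46 (1.2 to 1.79), and its counts were not whole, so part of its reads were divided with other genes. Parp9 was at 9.74 FPKM in D3BKO and 8.25 FPKM in D3BWT, a ratio of 1.18 (1.01 to 1.39). Of the 8 regulators 5 were thus below and 3 above their D3BWT level, with a median log2 ratio of -0.18.

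The 3 RIG-I-like helicases, sensors of foreign RNA in the cytosol, had ratios below 1, each within counting error. Ddx58, which encodes the RNA sensor RIG-I, was at 4.58 FPKM in D3BKO and 5.44 FPKM in D3BWT, a ratio of 0.842 (0.701 to 1.01). Ifih1, the gene of the long double-stranded RNA sensor MDA5, was at 1.47 FPKM in D3BKO and 1.94 FPKM in D3BWT, a ratio of 0.758 (0.559 to 1.02). Dhx58, which encodes the helicase LGP2, was at 2.76 FPKM in D3BKO and 3.43 FPKM in D3BWT, a ratio of 0.805 (0.571 to 1.13). The ratios of these 3 related helicases lay between 0.758 and 0.842, and every one of their intervals includes 1. Zbp1, a sensor of Z-form nucleic acids, had only 16 counts in D3BKO and 21 in D3BWT, with a ratio of 0.742 (0.362 to 1.49). Eif2ak2, the gene of the RNA-activated kinase PKR, was at 4.71 FPKM in D3BKO and 4.47 FPKM in D3BWT, with a ratio of 1.05 (0.860 to 1.29).

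The DNA-binding PYHIN genes did not share a direction. Ifi204, a myeloid DNA sensor related to human IFI16, was at 6.04 FPKM in D3BKO and 3.34 FPKM in D3BWT, a ratio of 1.81 (1.35 to 2.43). It was the largest ratio above 1 among the 37 tested members, and its counts of 136.93 in D3BKO and 72.80 in D3BWT were not whole, so it shares reads with near-identical family members. Ifi203 on the same chromosome, with 2 protein-coding genes between them, was at 6.21 FPKM in D3BKO and 6.27 FPKM in D3BWT, a ratio of 0.990 (0.818 to 1.2), and its sign turned when the libraries were rescaled. Outside the panel, 2 further PYHIN genes that share reads were higher, with Ifi205 at 15.4 FPKM in D3BKO and 7.95 FPKM in D3BWT and Ifi211 at 8.23 FPKM in D3BKO and 4.18 FPKM in D3BWT. Mndal, which shares reads too, was at 5.96 FPKM in D3BKO and 7.23 FPKM in D3BWT, a ratio of 0.824 (0.634 to 1.07), and Ifi209 had 15 counts in D3BKO and 14 in D3BWT. Macrophage markers lay in the same direction as Ifi204, Ifi205 and Ifi211. All 10 had intervals above 1 and a median log2 ratio of 0.64, and their summed level was 596 FPKM in D3BKO and 401 FPKM in D3BWT. The part of macrophages in the Ifi204 value was not tested.

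The IFIT genes, whose proteins bind viral RNA that lacks host cap marks, were lower as a family. Ifit2 was at 0.97 FPKM in D3BKO and 2.06 FPKM in D3BWT, from 38 and 78 counts, the lowest ratio of the tested members at 0.471 (0.311 to 0.702). Ifit1 was at 1.34 FPKM in D3BKO and 2.35 FPKM in D3BWT, a ratio of 0.570 (0.364 to 0.881). Ifit3 was at 5.15 FPKM in D3BKO and 7.71 FPKM in D3BWT, a ratio of 0.668 (0.513 to 0.868). All 3 lie in 1 cluster on chromosome 19, and their direction held under each scaling tried. Ifit3 shares reads with its near-identical copy Ifit3b, which was at 1.36 FPKM in D3BKO and 1.25 FPKM in D3BWT, so the division between the pair is uncertain. Ifit2 alone of the 3 passed 1.5-fold when 1 FPKM was added to each value. That addition understates differences at such low levels, and with a pseudocount of 0.1 Ifit1 passed 1.5-fold as well.

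Isg15, the ubiquitin-like protein that is joined to other proteins during infection, was at 8.22 FPKM in D3BKO and 13.6 FPKM in D3BWT. Its ratio of 0.606 (0.429 to 0.851) rests on 58 and 92 counts, and it was no longer past 1.5-fold when both libraries were brought to 1 FPKM sum or when the trend with transcript length and expression was removed. Rsad2, which encodes viperin, an enzyme that makes a chain-terminating nucleotide, was at 3.05 FPKM in D3BKO and 4.59 FPKM in D3BWT, a ratio of 0.664 (0.519 to 0.848). Its neighbour Cmpk2, which encodes a mitochondrial nucleotide kinase, was at 2.82 FPKM in D3BKO and 3.72 FPKM in D3BWT, a ratio of 0.758 (0.569 to 1.01). No protein-coding gene lies between the pair on chromosome 12, and both were lower, Rsad2 by more than counting error.

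**Figure D2:**
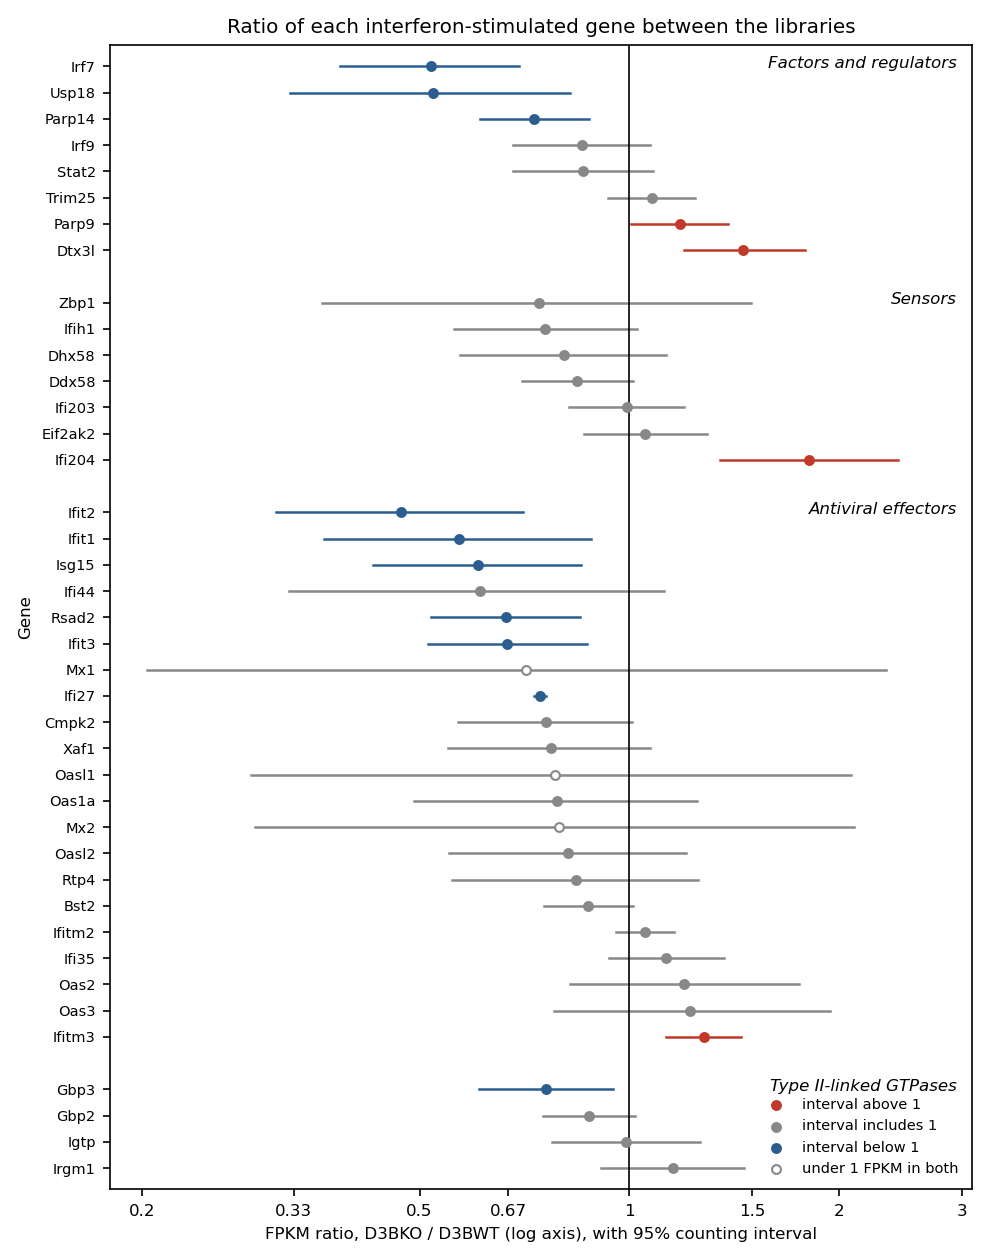
FPKM ratio of D3BKO to D3BWT on a log axis for 40 of the 41 genes, with 95% counting intervals as bars (Ifitm1, at 0 in D3BWT, has no ratio); open points were under 1 FPKM in both libraries. The intervals of 10 genes, from Ifit2 at 0.471 to Gbp3 at 0.760, lie below 1, and those of Parp9, Dtx3l, Ifi204 and Ifitm3 lie above it.

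Oligoadenylate synthetases, which make the messenger that activates RNase L, were low, and the intervals of those in the panel include 1. Oas2 was at 1.71 FPKM in D3BKO and 1.43 FPKM in D3BWT, a ratio of 1.2 (0.820 to 1.75). Oas3, next to it on chromosome 5, was at 1.0 FPKM in D3BKO and 0.82 FPKM in D3BWT, a ratio of 1.22 (0.780 to 1.94). Oas1a was at 1.95 FPKM in D3BKO and 2.48 FPKM in D3BWT, a ratio of 0.786 (0.491 to 1.25), and like Oas3 it had counts that were not whole. Outside the panel and under 1 FPKM in both libraries, Oas1b had 2 counts in D3BKO and 14 in D3BWT, a ratio of 0.136 (0.0150 to 0.591), and Oas1c had 3 in D3BKO and 15 in D3BWT, a ratio of 0.188 (0.0350 to 0.666). These 2 lay lower by more than counting error, on few reads. The synthetase-like Oasl2 was at 1.64 FPKM in D3BKO and 2.01 FPKM in D3BWT, with a ratio of 0.816 (0.550 to 1.21), and its neighbour Oasl1 was at 0.43 FPKM in D3BKO and 0.55 FPKM in D3BWT. The dynamin-like GTPases Mx1 and Mx2 were barely present. Mx1, which is defective in most laboratory strains, C57BL/6 included, had 6 counts in D3BKO and 8 in D3BWT, and Mx2 had 9 in D3BKO and 11 in D3BWT. No difference could be seen at that depth.

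Some effectors ran at far higher levels than the rest of the panel. Ifi27, an interferon-induced small hydrophobic protein of membranes, ranked 39th of all genes by FPKM in D3BKO and 27th in D3BWT, at 1780 and 2395 FPKM. It made up 79.9% of the summed FPKM of the 41 genes in D3BKO and 84.4% in D3BWT, and its ratio was 0.743 (0.729 to 0.758). Its paralog Ifi27l2a, chosen after its values were seen, was likewise abundant, at 1036 FPKM in D3BKO and 1380 FPKM in D3BWT, with a ratio of 0.751 (0.722 to 0.781). The log2 ratio of Ifi27 was -0.43 as deposited and -0.27 after the trend with length and expression was removed. Without Ifi27 the summed level of the panel was 447 FPKM in D3BKO and 443 FPKM in D3BWT, with Ifitm2 and Ifitm3 the most abundant genes in both.

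The IFITM genes, whose proteins block the fusion of viruses with cell membranes, were level or higher, unlike the IFIT family. Ifitm3 was at 99.7 FPKM in D3BKO and 78.1 FPKM in D3BWT, a ratio of 1.28 (1.13 to 1.45). Ifitm2 was at 149 FPKM in D3BKO and 141 FPKM in D3BWT, a ratio of 1.05 (0.957 to 1.16). Ifitm1, which lies between them on chromosome 7, had 6 counts in D3BKO and none in D3BWT. Set against the 3 counts that a count of 0 allows, its ratio was 1.92, with the 6 counts taken as exact. The counting interval of Ifitm1 begins at 1.13. The direction of these IFITM genes held under each scaling tried, and that of Ifitm1 rests on 6 reads. Fibroblast markers were also higher, with 4 of 6 intervals above 1 and a summed level of 225 FPKM in D3BKO and 174 FPKM in D3BWT, and the part of stroma and macrophages in the Ifitm3 value was not tested.

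The other effectors stayed within counting error. Bst2, the tetherin that holds budding viruses at the cell surface, was at 43.1 FPKM in D3BKO and 49.4 FPKM in D3BWT, a ratio of 0.872 (0.753 to 1.01). Ifi35, a partner of the protein NMI, was at 18.3 FPKM in D3BKO and 16.2 FPKM in D3BWT, a ratio of 1.13 (0.934 to 1.37). Rtp4, a receptor chaperone that also limits flaviviruses, was at 3.13 FPKM in D3BKO and 3.74 FPKM in D3BWT, a ratio of 0.837 (0.556 to 1.26). These 3 genes thus lay within 1.2-fold of the D3BWT level. Xaf1, a pro-apoptotic partner of XIAP, had a ratio of 0.772 (0.549 to 1.07) with reads divided among genes, and Ifi44, whose role is less well known, had 0.611 (0.325 to 1.12) from 19 counts in D3BKO and 30 in D3BWT. Over the 18 tested effectors the median log2 ratio was -0.26, with 13 below 0 and 5 above.

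The GTPases linked to interferon gamma had a median log2 ratio of -0.10, which was -0.26 when the 2 of the 4 that share reads were left out. It was -0.02 when the D3BKO values were rescaled to the FPKM total of the D3BWT library. Gbp3, a guanylate-binding protein, was at 5.67 FPKM in D3BKO and 7.46 FPKM in D3BWT, a ratio of 0.760 (0.608 to 0.948). Its relative Gbp2, with 1 protein-coding gene between them on chromosome 3, was at 13.5 FPKM in D3BKO and 15.4 FPKM in D3BWT, a ratio of 0.875 (0.752 to 1.02). Of the immunity-related GTPases, which act on membranes around pathogens, Irgm1 was at 7.34 FPKM in D3BKO and 6.35 FPKM in D3BWT, a ratio of 1.16 (0.912 to 1.46). Igtp, also called Irgm3, was at 6.90 FPKM in D3BKO and 6.99 FPKM in D3BWT, a ratio of 0.987 (0.775 to 1.26), and its sign turned under 5 of the alternatives. Gbp3 was the 1 GTPase of the panel whose interval left out 1, and Irgm1 and Igtp had counts in D3BWT that were not whole.

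Outside the panel, the ligands were not listed in either library. None of 21 interferon genes, Ifnb1 and Ifng among them, had a row. The files hold only genes with reads, and some other genes, Rnf213 among them, had no row either, so it cannot be told whether each interferon gene was counted and had no reads. The receptors were present at near-equal levels. Ifnar1, the signalling chain of the type I receptor, was at 9.06 FPKM in D3BKO and 9.76 FPKM in D3BWT, a ratio of 0.928 (0.831 to 1.04), and Ifnar2, its binding chain, at 88.4 FPKM in D3BKO and 97.2 FPKM in D3BWT, a ratio of 0.910 (0.837 to 0.990). Jak1, the receptor kinase, was higher at 28.9 FPKM in D3BKO and 21.9 FPKM in D3BWT, a ratio of 1.32 (1.22 to 1.43), as was Ifngr1, a chain of the interferon gamma receptor, with a ratio of 1.19 (1.10 to 1.30). The kinase gene Jak2, Stat3 and the phosphatase gene Ptpn11 had intervals above 1 too, with ratios of 1.27, 1.27 and 1.26. Of the 16 tested genes for receptors, kinases, STATs and brakes, none was 1.5-fold higher or lower, 12 were above 0 and 4 below, and the median log2 ratio was 0.12.

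Factors and adaptors that act before interferon is made held some larger ratios. Of 26 tested genes 4 were 1.5-fold higher, against 4.35% of all tested genes, and none 1.5-fold lower, against 3.41%, with a median log2 ratio of 0.07. The 4 were Irf5, a factor of myeloid cells, at 5.34 FPKM in D3BKO and 2.21 FPKM in D3BWT with a ratio of 2.42 (1.70 to 3.48), the RNA-sensing Toll-like receptor genes Tlr7 with 2.35 (1.5 to 3.75) and Tlr8 with 2.45 (1.39 to 4.49), and the kinase gene Ikbke with 3.42 (1.66 to 7.74) from 36 counts in D3BKO and 10 in D3BWT. Tlr7 was at 1.9 FPKM in D3BKO and 0.81 FPKM in D3BWT, Tlr8 at 1.47 and 0.6, and Ikbke at 1.13 and 0.33. They thus passed the 1 FPKM minimum only in D3BKO, the library in which each was higher, and of the 4 only Irf5 passed it in both. Irf8, another myeloid factor, had a ratio of 1.49 (1.09 to 2.06). Macrophage markers were higher beside these genes, as given above, and their part in the ratios was not tested. Irf1, an early target of interferon gamma, had a ratio of 0.853 (0.711 to 1.02), and Ddx41, a helicase linked to DNA sensing, 0.723 (0.613 to 0.852).

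Of 51 further interferon-induced genes that were tested, 3 were 1.5-fold lower, against 3.41% of all tested genes, and 2 were 1.5-fold higher, against 4.35%, shares near those of all genes. Among the 51, 30 were below 0 and 21 above, with a median log2 ratio of -0.08. Cd274, which encodes the checkpoint ligand PD-L1, was the 1 gene of the panel and the pathway lists called at 2-fold on the log2(FPKM + 1) scale, at 7.65 FPKM in D3BKO and 19.1 FPKM in D3BWT, a ratio of 0.401 (0.347 to 0.462). By plain FPKM ratios Irf5, Tlr7, Tlr8, Ikbke and Ifit2 were past 2-fold as well among the tested genes. So was the ubiquitin ligase gene Herc6 at 1.36 FPKM in D3BKO and 0.65 FPKM in D3BWT, a ratio of 2.09 (1.37 to 3.26). Untested genes past 2-fold, such as Oas1b and Oas1c given above, are left out here. Sp100, a nuclear body protein, had a ratio of 0.563 (0.425 to 0.740) and the guanylate-binding protein gene Gbp4 0.567 (0.443 to 0.723). Ifi47, an immunity-related GTPase, was at 1.65 FPKM in D3BKO and 2.81 FPKM in D3BWT, a ratio of 0.587 (0.356 to 0.955). The genes above 0 included the PYHIN genes Ifi205 and Ifi211 given before, while Mndal was below 0.

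**Figure D3:**
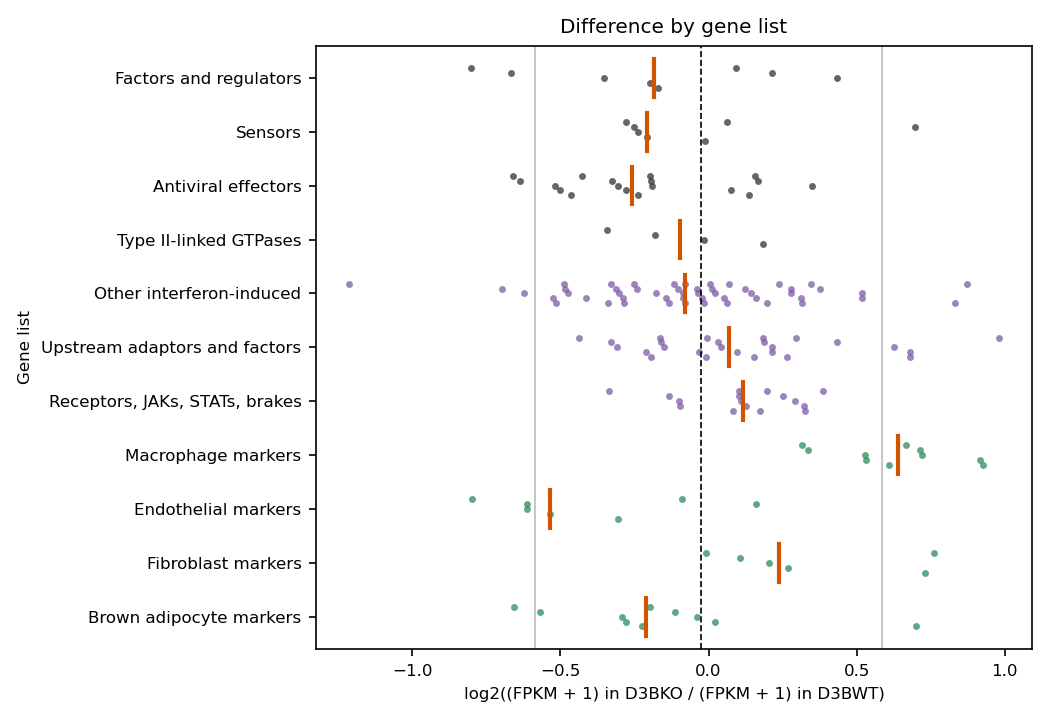
log2 ratio of D3BKO to D3BWT, on log2(FPKM + 1), for each tested gene of the 4 roles of the panel (black), of other interferon pathway lists (purple) and of cell type markers (green); orange bars are list medians, the dashed line is the median of all tested genes at -0.03 and grey lines mark 1.5-fold. The medians of all 4 roles lie between -0.26 and -0.10, while macrophage markers lie above 0 and endothelial markers mostly below it.

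Cell type markers gave the setting in which these levels were read. Brown adipocyte markers had a median log2 ratio of -0.21, with 7 of 10 intervals below 1 and 1 above, and summed to 16294 FPKM in D3BKO and 20420 FPKM in D3BWT, so they lay in the same direction as Ifi27, Irf7 and the IFIT genes. Of all tested genes 22.4% had an interval below 1 and 18.2% above. At high counts a small difference leaves out 1, as for Plin1 at 0.972 (0.947 to 0.999). The FPKM sum of all genes was 571034 in D3BKO and 606888 in D3BWT, and the markers were not rescaled. Endothelial markers were lower in the D3BKO library, with 5 of 7 intervals below 1, a median log2 ratio of -0.54 and a summed level of 154 FPKM in D3BKO and 191 FPKM in D3BWT. Markers of plasmacytoid dendritic cells, the main makers of type I interferon in blood, were scarce but for Tcf4, at 8.22 FPKM in D3BKO and 8.85 FPKM in D3BWT, with Siglech at 5 counts in D3BKO and 11 in D3BWT and Spib and Pacsin1 at 0 in D3BKO and Ccr9 and Bcl11a at 0 in D3BWT. The 7 T cell markers summed to 1.64 FPKM in D3BKO and 3.11 FPKM in D3BWT, and the 7 natural killer markers to 1.21 FPKM in D3BKO and 1.67 FPKM in D3BWT, all from 55 counts or fewer a library. Neutrophil markers summed to 13.7 FPKM in D3BKO and 5.42 FPKM in D3BWT, from 53 and 19 counts. The part of these cells in the values of the panel was not tested.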

How the data were processed

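The 2 brown adipose libraries were made from polyadenylated RNA with PCR amplification, per the labels' protocols, which name no strand, so antisense reads were not separated. The authors deposited an expected count per gene, estimated by RSEM with reads that fit several genes divided among them, together with FPKM. The column names are per the file headers, and RSEM and the build mm9 are per the submitters' processing notes, where no aligner was found. FPKM is relative to the whole library, and a gene not listed was set to 0. The deposited transcript length was used for the trend only.

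Entrez identifiers were matched to symbols in a RefSeq table of GRCm38.p6, with 16134 genes matched and all 41 members found by symbol. A gene was tested at 1 FPKM or more in either library. The log2 ratio used a pseudocount of 1 FPKM, so it understates the difference of low genes. A gene was called at 2-fold or 1.5-fold on that scale when the 95% interval of its ratio left out 1. The interval was the exact conditional Clopper-Pearson interval of the rounded expected counts, scaled to the FPKM ratio, and PCR copies may make it too narrow. Counts were called whole within 0.05. Single libraries allow no test of genotype. The code for the calls was tested on simulated data only for whether it finds known folds, which says nothing about false calls between real libraries. Members and lists were chosen with earlier results of these data known. All members were named, with up to 6 genes of each further interferon list by absolute log2 ratio, plus Dnmt3b, Ucp1, Irf1, Ifnar1, Ifnar2, Ifnb1 and Ifng. Other genes named were chosen after their values were seen, and 1 gene of the rule is not reported here. The alternatives were other pseudocounts, filters, scalings and units, removal of a smooth trend, genes with shared reads left out, no counting interval and means for medians. The work used Python 3.11.15, pandas 2.3.3, scipy 1.17.1 and statsmodels 0.14.6.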

Additional observations from a re-analysis of the deposited data

How the results depend on the processing

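Across the alternatives the members' median log2 ratio stayed below 0, between -0.25 and -0.11. The median of each role stayed below 0 too, over a wider range. It ran from -0.35 for the antiviral effectors with a pseudocount of 0.1 to -0.02 for the GTPases after rescaling to the same FPKM total. Irf7 and Usp18 stayed past 1.5-fold lower in each setting that tested them except a pseudocount of 5, under which no member was 1.5-fold lower or higher (0 and 0). With a mean of at least 5 FPKM, 2 members were 1.5-fold lower and 0 higher. Ifi204 was the gene lost when genes with shared reads were left out (0 higher), and with no filter on low values Ifitm1 joined it (2 higher). With a pseudocount of 0.1, 1 member, Ifit2, was 2-fold lower. Of all genes, 281 were 2-fold higher and 196 lower with a pseudocount of 0.1, 15 and 14 with a pseudocount of 5, 42 and 27 with a mean of at least 5 FPKM, and 224 and 155 with CPM in place of FPKM, against 106 and 79 as reported. By its formula the log2 ratio lies nearer 0 with a larger pseudocount and further from 0 with a smaller one. Under the filter 7534 genes were tested and with CPM 12972, against 11746 as reported. What else lay behind the counts with CPM was not tested. Of 443 values of single members under the alternatives, 431 stayed within their counting interval and 12 moved past it, and the sign turned for Ifi203 and Igtp alone. The filters on low values and the removal of genes with shared reads leave a member's own ratio as it was. The values under those settings, counted among the 431, could therefore not move. Removal of a trend with length, GC content and expression was added after the data were seen. No paired analysis was possible because each genotype has 1 library. Depth limits the low genes: 21 members in D3BKO and 23 in D3BWT had 100 counts or more.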

Other observations

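DNA methyltransferases act on CpG sites, so the CpG content of the panel's promoters was described. The median ratio of observed to expected CpG in the windows was 0.30 for the 30 members with a window, 0.761 for the tested genes in the promoter table and 0.389 for all genes in it. The tested members with a ratio under 0.6 numbered 22, with a median log2 ratio of D3BKO to D3BWT of -0.22 and 17 below 0. The 6 with a ratio of 0.6 or more (Ddx58, Dtx3l, Eif2ak2, Ifih1, Stat2 and Trim25) had a median of -0.05 with 3 below 0. All tested genes were not divided in this way, so it cannot be told whether other genes differ alike. The division at 0.6 was chosen after the data were seen, the ranges of the groups overlap, from -0.80 to 0.35 and from -0.25 to 0.43, and no methylation was measured here, so the difference was not tested.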
